A study of Mus musculus with 12 samples.

Results

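Conjugating enzymes and carboxylesterases are the genes described here. A gene was taken as a member when it is protein-coding and its symbol starts with Ugt1a, Ugt2a, Ugt2b, Sult1, Sult2, Sult3, Sult5, Gsta, Gstm, Gstp, Gstt, Ces1, Ces2 or Ces3. This gave 72 members of the 55487 genes counted, in 14 families, after 9 pseudogenes with such symbols had been left out. The rule reads symbols and no expression value, but the families were picked with earlier results of these data known. RNA had been sequenced from 2 organs, liver and brain, of 6 mice, as 12 libraries in 4 groups of 3. Mice A, C and F were labelled METTL5 KO, and mice B, D and E were labelled WT. METTL5 places a methyl group on an adenosine of the RNA of the small ribosomal subunit. The KO allele was made by floxing an exon of Mettl5 in C57bl/6 and 129S6 hybrid ES cells and removing it with CMV-cre, which acts in the whole body. The study describes its mice as weeks to months old and of both sexes and names no treatment. The labels give no age, sex or litter. They call every control WT, whereas the study's legends differ, some naming heterozygous animals (Mettl5+/-) as the controls of its RNA sequencing and another showing reads of a Mettl5+/+ littermate. WT means here only the label, and each comparison of KO with WT below may be one with mice that carry 1 intact allele.

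Library totals ran from 14403309 to 21623180 counts. The members took 0.821% to 0.980% of the counts of a liver library and 0.0158% to 0.0279% of those of a brain library. Levels are given as CPM, the counts of a gene relative to the TMM-scaled size of its library, and the order of genes by level is given as CPM per kilobase of exon that no other gene shares. Mettl5 itself was at 8.11 to 14.9 CPM in WT liver and 3.63 to 4.06 CPM in KO liver, and at 5.01 to 9.07 CPM in WT brain and 3.33 to 3.95 CPM in KO brain. KO lay below WT in every library of both tissues. In the main edgeR fit of each tissue the change did not pass (log2 fold change -1.44, SE 0.27, adjusted p = 0.383 in liver and -0.84, SE 0.27, adjusted p = 0.373 in brain). The counts sum over all exons and so do not single out the deleted one. Liver libraries held 47749.9 to 60895 CPM of Alb and brain libraries held 999.2 to 1192 CPM of Snap25, markers of hepatocytes and of neurons. The liver and brain libraries of WT mouse E and KO mouse F held at most 20 counts from 4 Y-linked genes and at least 9446 counts of Xist, whereas those of the other 4 mice held at least 2112 and at most 19. These libraries are called below the libraries without Y-linked transcripts, 1 of 3 in each group.

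UDP-glucuronosyltransferases (Ugt genes) are membrane enzymes of the endoplasmic reticulum that join glucuronic acid to bilirubin, steroids, bile acids and drugs. Cytosolic sulfotransferases (Sult genes) transfer sulfate to phenols, steroids and bile acids, and glutathione S-transferases (Gst genes) join glutathione to reactive electrophiles. Carboxylesterases (Ces genes) hydrolyse esters, amides and stored lipids and so prepare molecules for conjugation, and the liver is the main site of all of these reactions. Many of these genes differ in level between male and female mouse liver, where the pulse pattern of growth hormone acts through STAT5.

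The members lie together in the genome. With gaps of up to 500 kb allowed, the 72 members fall in 15 places of the mouse genome (GRCm38), and 68 of them lie in 11 places with at least 2 members. The Ces1 genes occupy chr8:93020214-93379725 and the Ces2 and Ces3 genes chr8:104734003-105093929. All 10 Ugt2b and Ugt2a genes share chr5:86889767-87591594 with Sult1b1, Sult1d1 and Sult1e1, and 8 Sult2a genes lie in chr7:13623967-14494230. The Gstm genes are at chr3:107895821-108044894, the Gstp genes at chr19:4035407-4059569 and the Gstt genes at chr10:75774115-75837424.

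The Ugt1a locus, chr1:88055388-88220002, is a special case, because its 9 genes each have a first exon of their own and splice it to the same following exons. The coding sequence of each Ugt1a gene ended in the same 740 bases, after 847 to 868 bases of its own, and only 39.4% to 49.7% of the exon bases of a gene were its own. The joins of 6 of the genes are shown because they mark where the own sequence of a gene ends and the shared sequence begins. Each has the last 60 bases of the own exon in lower case and the first 30 bases of the shared part in capitals, 5′ to 3′, from the GENCODE M21 transcripts.
Ugt1a1 join: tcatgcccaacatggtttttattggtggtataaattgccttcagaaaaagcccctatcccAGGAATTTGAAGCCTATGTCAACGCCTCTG
Ugt1a2 join: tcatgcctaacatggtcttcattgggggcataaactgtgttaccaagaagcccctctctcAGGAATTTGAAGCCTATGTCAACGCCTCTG
Ugt1a5 join: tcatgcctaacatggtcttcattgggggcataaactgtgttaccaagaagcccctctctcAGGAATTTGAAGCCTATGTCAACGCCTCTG
Ugt1a6a join: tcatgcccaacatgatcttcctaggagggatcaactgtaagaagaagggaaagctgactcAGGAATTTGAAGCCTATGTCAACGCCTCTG
Ugt1a6b join: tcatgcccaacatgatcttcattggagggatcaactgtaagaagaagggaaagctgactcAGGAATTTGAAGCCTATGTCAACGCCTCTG
Ugt1a9 join: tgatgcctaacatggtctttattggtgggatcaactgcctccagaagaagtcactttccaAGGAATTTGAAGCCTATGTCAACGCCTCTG

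The capitals are the same in every line. Ugt1a2 and Ugt1a5 are also the same over the own bases shown. Over the whole of the own coding sequence, identity ran from 53.92% between Ugt1a1 and Ugt1a7c to 96.96% between Ugt1a6a and Ugt1a6b, which both conjugate small phenols. The featureCounts options named for these libraries set the strand, the gene identifier and the exon feature, and none of them asks for reads that overlap several genes to be counted. Such reads stay unassigned by default, and levels are therefore given per base of own exon. Shared sequence also touches other members. Of the 100-base windows in the exons of Gsta1, 81.8% occur elsewhere in the annotated transcripts. The share was 63.5% for Gstp2, 52.8% for Gstp1, 35.0% for Gsta2, 34.6% for Sult2a2, 24.7% for Ugt2b5 and 24.2% for Ugt2b38. It was 9.09% for Ces3a and 7.68% for Ces3b. Of the 6 members without a count in any library, Ugt2a1 and Ugt2a2 have 1.17% and 5.51% of their exon bases to themselves, so that their 0 says little. Sult2a6, Ces1h, Ces2f and Gstt4 were the others.

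**Figure D1:**
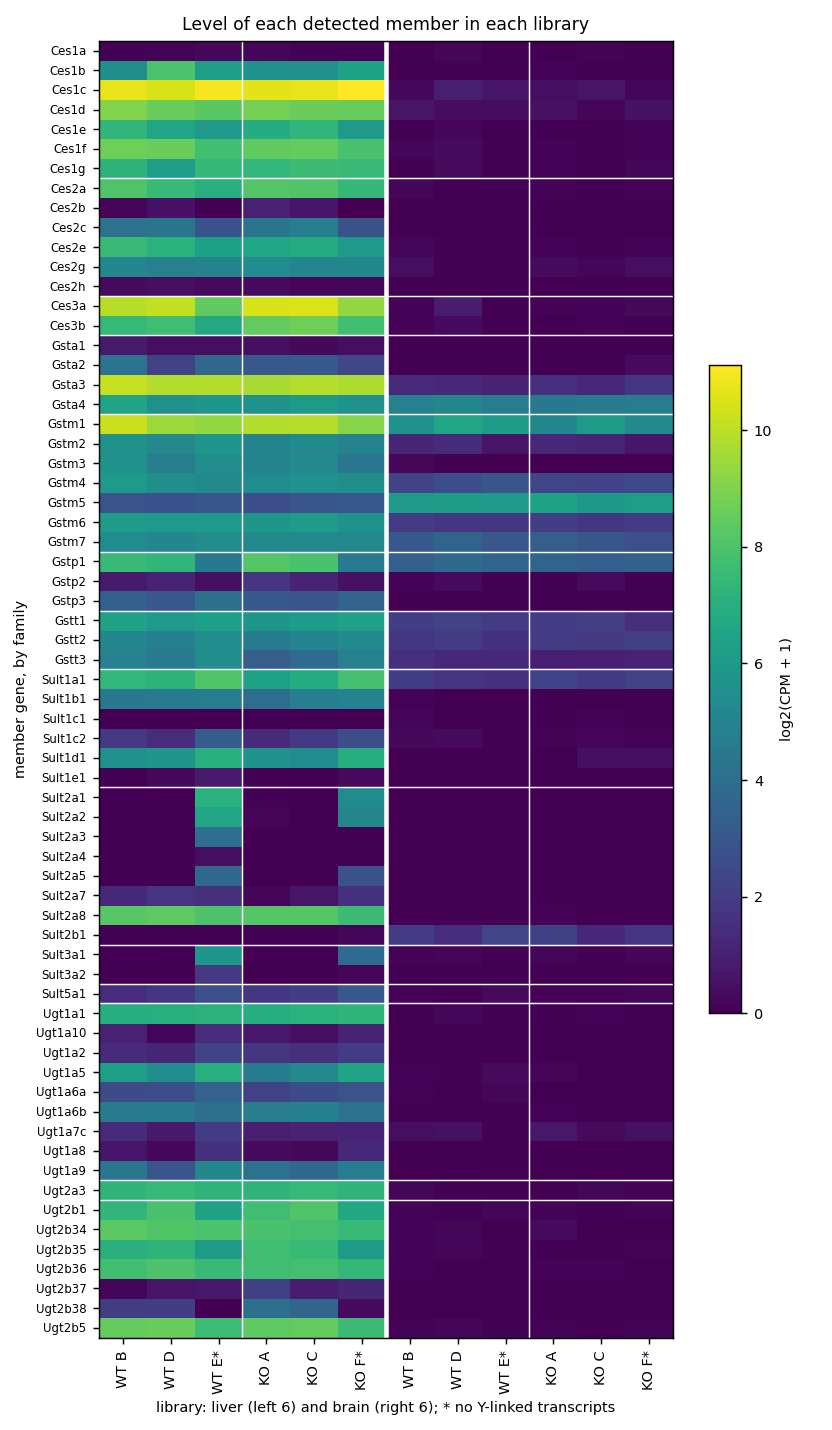
Heat map of the 66 members with at least 1 count (rows, grouped by family) in the 12 libraries (columns, liver on the left and brain on the right, asterisks mark libraries without Y-linked transcripts), coloured by log2(CPM + 1) from dark (0) to bright, with no correction for gene length, so that a row is read across libraries and not against other rows. Most members are brighter in every liver library than in brain, where most are near 0, and some Sult2a and Sult3a genes appear only in the 2 liver libraries marked with an asterisk.

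In WT liver a few members held most of the level of the whole set. Per kilobase of own exon, the highest was Ces1c, a carboxylesterase that the mouse liver secretes into plasma, at 723 ± 134 CPM per kb (SD, n = 3). Gstm1, a broad mu-class glutathione transferase, followed at 576 ± 199.8 CPM per kb, and Ces3a at 302 ± 152. The interval of mean ± SD overlapped with that of the next member at each of these steps. Gsta3, an alpha-class transferase, stood at 225 ± 27.5 CPM per kb. Ces1d, a triacylglycerol hydrolase, stood at 169 ± 44.4 and Ugt2b5, which glucuronidates steroids, at 167 ± 50.9. Ugt1a1, the bilirubin-conjugating enzyme, had 142 ± 9.62 CPM per kb and Sult1a1, the main phenol sulfotransferase, 130 ± 47.5. The last 4 of these did not differ beyond their spread. Together the 8 made up 60.6% of the level summed over members, and 53 members exceeded 1 CPM per kb. When the length of all exons was used in place of own exons, Ugt1a1 moved from rank 7 to rank 18 and Sult1a1 from rank 8 to rank 7.

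The brain order was another one. Gstm5 led WT brain with 50.2 ± 2.42 CPM per kb (SD, n = 3) and Gstm1 followed with 47.9 ± 14.4, a difference within the spread. Gsta4, which detoxifies the lipid aldehyde 4-hydroxynonenal, had 22.7 ± 3.64 CPM per kb. Gstp1, the pi-class transferase, had 7.20 ± 1.07 and Gstm7 had 5.30 ± 1.40. None of the Ugt and Ces genes exceeded 0.236 CPM per kb on average in WT brain, the value of Ces1c. Of the 14 members that passed the filter on low counts in brain, 12 were glutathione transferases, with Sult1a1 and Sult2b1 as the others.

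The comparison of WT liver with WT brain, for which the level is relative to all RNA of each tissue, asked which members belong to which organ. Of the 48 members tested, 34 passed the filter within liver alone and had to stand higher there, and 1, Sult2b1, passed it within brain alone and had to stand higher in brain, so no share of the 48 is read as a result. As a description, 48 differed at an adjusted p under 0.1 (edgeR; 78.3% of all genes tested), 46 with liver higher (35.4%) and 2 with brain higher (42.9%). Of the 13 members that passed the filter within each tissue, 12 were higher in liver and 1, Gstm5, in brain. Gstm5 was at 64.2, 67.3 and 61.1 CPM in the WT brains of mice B, D and E and at 6.17, 5.88 and 6.80 CPM in their livers. The ranges were far apart, and the log2 fold change of liver against brain was -2.67 (SE 0.16, adjusted p = 8.2e-08, edgeR). Sult2b1, which sulfates cholesterol and other 3-hydroxysteroids, was at 2.77, 1.70 and 4.06 CPM in the 3 WT brains and had 1 count in all WT livers together. Its relatives of the chromosome 7 cluster had at most 2 counts in all WT brains together.

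The other Gstm genes, which lie beside Gstm5 in the same 149-kb stretch, all stood higher in WT liver. Gstm1 had a log2 fold change of 4.27 (SE 0.33), Gstm7 of 2.91 (SE 0.22) and Gstm4 of 3.85 (SE 0.26). Among the remaining glutathione transferases of brain, Gsta4 had the least difference, 1.83 (SE 0.24). Gstp1 stood at 4.14 (SE 0.84, adjusted p = 0.00519, edgeR), with a wide spread because its WT liver values were 186, 161 and 21.7 CPM. That call was lost without mouse D (adjusted p = 0.130). The Gstm5 promoter is shown because Gstm5 goes the other way from its neighbours. Capitals mark TGACNNNGC, the core of the antioxidant response element that NRF2 binds, and GCGTG, the core of the xenobiotic response element that AHR binds. It is written 5′ to 3′ from RefSeq on GRCm38.p6, without the bases inside the annotated gene.
Gstm5 promoter, chr3:107895604-107895820, plus strand: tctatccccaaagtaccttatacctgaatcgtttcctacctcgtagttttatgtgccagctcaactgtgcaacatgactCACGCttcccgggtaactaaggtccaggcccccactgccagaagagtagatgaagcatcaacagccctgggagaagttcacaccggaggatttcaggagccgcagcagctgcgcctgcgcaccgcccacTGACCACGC

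The last 9 bases of the window, 42 to 34 bases before the RefSeq start, hold a TGACNNNGC match and, within it, a GCGTG match on the other strand. A separate GCGTG match lies 171 to 167 bases before the start. RefSeq promoter windows of 300 bases (250 before to 50 after the start) were matched for 62 of the 72 members. Counted over both strands, TGACNNNGC occurred in 2 of them, Gsta3 and Gstm5 (3.23%), and in 12.4% of 27025 mouse promoters. GCGTG occurred in 11 (17.7%, among them Gstm1, Gstp1 and Sult1d1) and in 32.5% of all promoters.

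**Figure D2:**
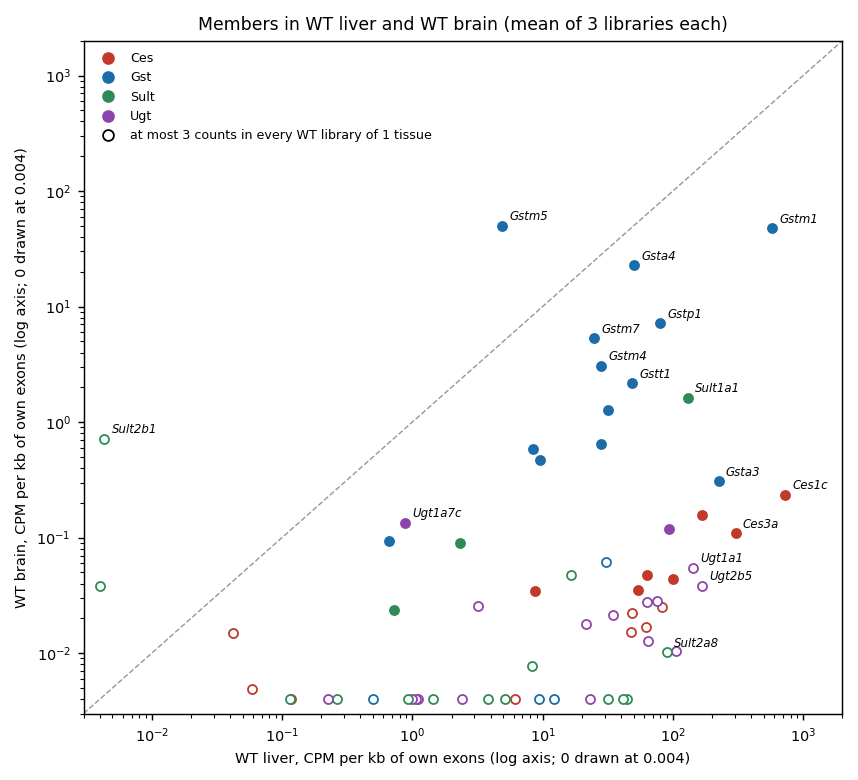
Mean level of each member in WT liver (horizontal axis) and WT brain (vertical axis), in CPM per kilobase of own exon on log axes, with 0 drawn at 0.004, coloured by gene group. Open symbols are members with at most 3 counts in every WT library of 1 tissue. Gstm5 and Sult2b1 lie on the brain side, and the Ugt and Ces genes lie along the bottom.

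Most members were at or near 0 in brain, so that a fold could only be bounded. No count was found in any WT brain library for 26 members, 6 of which had none in WT liver either. For 19 members without a WT brain count, the WT liver level was at least 1.75-fold to 480.5-fold higher than 3 counts per brain library would give. The bound exceeded 10-fold for 12 and 100-fold for 4 of them. These were Sult1d1, which sulfates catecholamines (at least 480.5-fold higher), Sult2a1 (278), Sult2a2 (189) and Ugt1a9 (129). These figures lean on mouse E. Without it, 7 bounds exceeded 10-fold and 2 exceeded 100-fold, Sult1d1 at 300.1-fold and Ces2c at 108-fold, Ugt1a9 fell to 81.9-fold, and Sult2a1 and Sult2a2, which had counts in no other WT liver, gave none. A further 28 members had 1 to 9 WT brain counts in all. For the 26 of them with more than 9 WT liver counts, the ratio of liver to brain ran from 6.66 to 12059. The other two were Ces1a, with 5 liver and 2 brain counts (ratio 2.63, 0.430 to 27.6), and Sult1c1, with 0 and 3. Ugt2b36 had 11471 counts in WT liver and 1 in WT brain, a ratio of 12059 with an exact 95% counting interval from 2164 to 476351. Sult2a8, a bile acid sulfotransferase, had 15495 and 2 counts (8145, 2254 to 67260), Ugt2b34 had 14877 and 3 (5213, 1784 to 25282) and Ugt2b5 16272 and 4 (4277, 1670 to 15698). These intervals and bounds cover counting error only.

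The comparison of KO with WT liver asked whether loss of METTL5 changed the members. It found no member past the edgeR test: 0 of 51 members tested had an adjusted p under 0.1, where 0.0% of 14075 genes did. By DESeq2, the tool that the study used, 1 member passed (Ces3b, described below), where 1.33% of genes did. The edgeR fit had 2 members higher and 1 lower in KO at an unadjusted p under 0.05, against 2.76% and 4.57% of all genes. The members leaned to neither side by much, with 20 higher and 31 lower (49.6% and 50.4% of all genes) and a median of -0.088 on the log2 scale against -0.00 over all genes. In 48 of the 51 the log2 fold change was within 1 in either direction, with a median SE of 0.322, and the other three were Ugt2b38, Ugt2b37 and Sult2a7. For 13 members the fold change moved by over 1.5 times when 1 mouse was left out. In bulk tissue, fewer cells of a type and less RNA per cell cannot be told apart. Of the 21 members not tested, 7 had no count in liver and 14 had counts too low, or in too few libraries, for the filter, among them the Sult2a and Sult3a genes described below. The p-values weigh each difference against the spread between mice within a group.

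**Figure D3:**
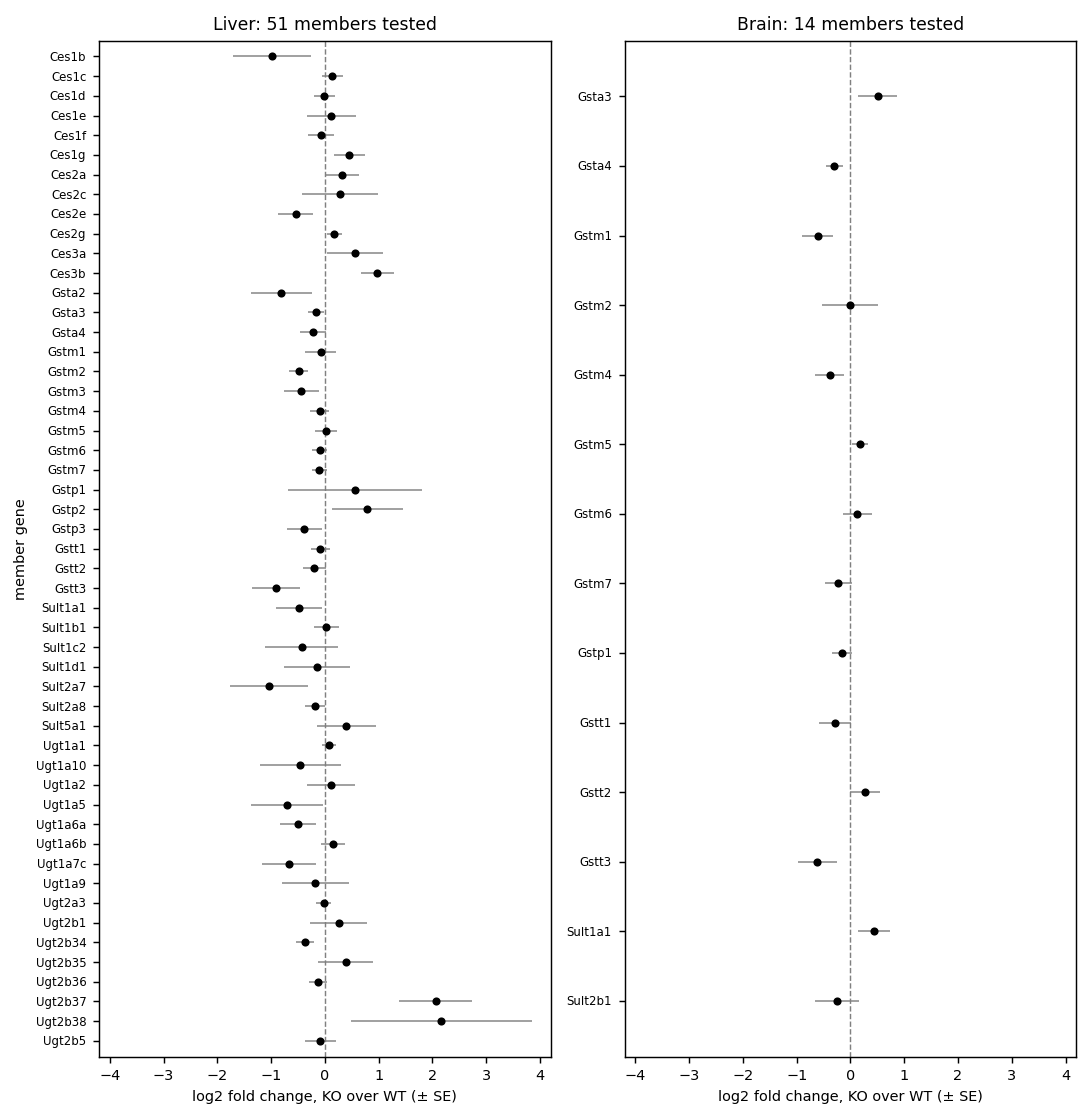
Log2 fold change of KO against WT for each member tested, with bars of 1 SE, in liver (51 members) and brain (14 members), edgeR. No member passed an adjusted p of 0.1. Ugt2b38 and Gstp1 have the widest bars in liver.

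The carboxylesterase Ces3b (ENSMUSG00000062181.14, chr8:105083753-105093929, plus strand) and Ugt2b37, described further on, had the smallest p-values of the members tested (adjusted p = 0.498 for both, edgeR). Ces3b stood at 174, 210 and 105 CPM in the WT livers of mice B, D and E and at 349.7, 399.6 and 215 CPM in the KO livers of mice A, C and F. All KO values lay above all WT values, the highest WT and the lowest KO value almost touching. The log2 fold change was 0.98 (SE 0.31, adjusted p = 0.498, edgeR). KO over WT was 1.95 among the libraries with Y-linked transcripts and 2.04 among those without. Ces3b passed the threshold in DESeq2 (log2 fold change 0.98, adjusted p = 0.0607), where 1.33% of genes did. It also passed with Y-linked transcripts as a covariate (0.98, adjusted p = 0.0245, 0.583% of genes, edgeR) and without mice E and F (0.97, adjusted p = 0.0816, 0.208% of genes, edgeR). Its log2 fold change stayed between 0.74 and 1.20 over 12 alternatives, and no alternative that left out 1 mouse made it a call. The neighbouring Ces3a, at chr8:105048601-105058413, had 963, 1081 and 339.6 CPM in WT and 1383, 1485 and 635 CPM in KO. These ranges overlapped, and the log2 fold change was 0.56 (SE 0.52). Within the libraries with and without Y-linked transcripts, Ces3a was 1.40 and 1.87 times as high in KO as in WT.

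Other carboxylesterases were less regular. Ces2e had 178, 137 and 78.4 CPM in WT and 93.8, 112 and 64.3 CPM in KO (log2 fold change -0.55, SE 0.32), with overlapping groups. Ces1g, a lipid hydrolase of the liver, had a log2 fold change of 0.46 (SE 0.28) and Ces2g of 0.17 (SE 0.14). In both Ces subfamilies of the chromosome 8 cluster that holds Ces3b, 5 of the 6 members tested were higher in KO and 1, Ces2e, was lower. Of the 6 Ces1 members tested, 3 were higher and 3 lower. Over all genes 49.6% were higher.

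Of the Ugt genes, Ugt2b37 (ENSMUSG00000057425.3, chr5:87240493-87254804, minus strand) and Ugt2b38 (ENSMUSG00000061906.5, chr5:87409942-87424203, minus strand) had the largest differences of all members tested. Ugt2b37 was at 0.154, 0.511 and 0.623 CPM in WT and 3.31, 0.782 and 1.30 CPM in KO liver. The groups did not overlap, at 3 to 11 counts per WT library and 14 to 55 per KO library (log2 fold change 2.06, SE 0.67, adjusted p = 0.498, edgeR). It passed the threshold without the filter on low counts (2.07, adjusted p = 0.0161, 1.63% of genes, edgeR), as did Ces3b. Mouse A had the highest value, and without it the log2 fold change was 1.29 (adjusted p = 0.920, edgeR), in a range of 1.29 to 2.65 over 12 alternatives. Ugt2b38 was at 3.03, 3.20 and 0 CPM in WT and at 16.4, 11.4 and 0.260 CPM in KO. The libraries of mice E and F were at or near 0 in both genotypes, and the log2 fold change was 2.16 (SE 1.68, adjusted p = 0.869, edgeR), or 1.49 without mouse A and 1.58 without mouse E. Among the libraries with Y-linked transcripts KO was 4.46 times as high as WT. With Y-linked transcripts as a covariate the change passed (2.21, adjusted p = 0.0245, edgeR), as it did without mice E and F (2.16, adjusted p = 0.0260, edgeR). Ugt2b34 differed in the other direction, with 319, 269.6 and 252 CPM in WT and 246, 228 and 177 CPM in KO. Here too the groups did not overlap (log2 fold change -0.37, SE 0.17, adjusted p = 0.683, edgeR). Non-overlap was found for 3 of the 51 members (Ces3b, Ugt2b37 and Ugt2b34), or 5.88%, against 12.9% of all genes (6.5% with KO higher and 6.44% with KO lower).

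The promoters of Ugt2b38 and Ugt2b37 are shown because these genes are alike before their starts. Identity over the 300-base windows was 86.94%. It was 84.19% between Ugt2b38 and Ugt2b5 and 76.23% between Ugt2b37 and Ugt2b5, which was at 202 to 378 CPM in WT liver and 195 to 348 CPM in KO liver. Capitals in the second line mark the 12 bases that differ from Ugt2b38 in the alignment. Bases of Ugt2b38 without a partner there are not marked. The Ugt2b37 line leaves out 16 bases that lie inside the annotated gene.
Ugt2b38 promoter, chr5:87424204-87424453, minus strand: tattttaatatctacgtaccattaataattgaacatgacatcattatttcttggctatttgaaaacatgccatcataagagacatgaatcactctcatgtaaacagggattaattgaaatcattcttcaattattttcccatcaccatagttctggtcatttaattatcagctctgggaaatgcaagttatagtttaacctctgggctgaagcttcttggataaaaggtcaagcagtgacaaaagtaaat
Ugt2b37 promoter, chr5:87254805-87255038, minus strand: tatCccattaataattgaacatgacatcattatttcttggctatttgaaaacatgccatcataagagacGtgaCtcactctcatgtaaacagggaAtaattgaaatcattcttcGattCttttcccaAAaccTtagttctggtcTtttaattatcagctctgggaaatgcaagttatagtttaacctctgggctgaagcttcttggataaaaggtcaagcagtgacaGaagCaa

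No match to TGACNNNGC, GCGTG or TTCNNNGAA was found in either window. The largest Ugt1a difference by its p was that of Ugt1a6a (log2 fold change -0.50, SE 0.33). Ugt1a1 was at 122 to 139 CPM in WT and 122 to 153 CPM in KO liver, with a log2 fold change of 0.07 (SE 0.14).

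No glutathione transferase was called in KO liver. Gstm2 was at 49.8, 36.5 and 55.8 CPM in WT and at 31.6, 38.9 and 30.6 CPM in KO (log2 fold change -0.49, SE 0.18, adjusted p = 0.558, edgeR). The groups overlapped by 1 WT and 1 KO library. Gstt3, a theta-class transferase, was at 29.8, 23.4 and 42.5 CPM in WT and at 9.20, 13.8 and 27.7 CPM in KO (log2 fold change -0.91, SE 0.44, adjusted p = 0.741, edgeR). KO over WT was 0.432 with and 0.653 without Y-linked transcripts for Gstt3, and 0.818 and 0.548 for Gstm2. Of the 16 glutathione transferases tested, 13 were lower and 3 higher in KO. The 3 were Gstp2 (0.79 on the log2 scale, SE 0.66, but 0.0153 without mouse A), Gstp1 (0.56, SE 1.24) and Gstm5 (0.02, SE 0.20). Of the 7 sulfotransferases tested, Sult2a7 had the largest change and the smallest p. It was at 1.39, 2.24 and 1.87 CPM in WT and at 0.120, 0.559 and 1.93 CPM in KO, so that KO mouse F lay within the WT range (log2 fold change -1.04, SE 0.72, adjusted p = 0.830, edgeR). Without mouse F its log2 fold change was -2.38 (adjusted p = 0.447, edgeR). Sult1a1 had a log2 fold change of -0.49 (SE 0.42) and Sult2a8 of -0.19 (SE 0.18).

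**Figure D4:**
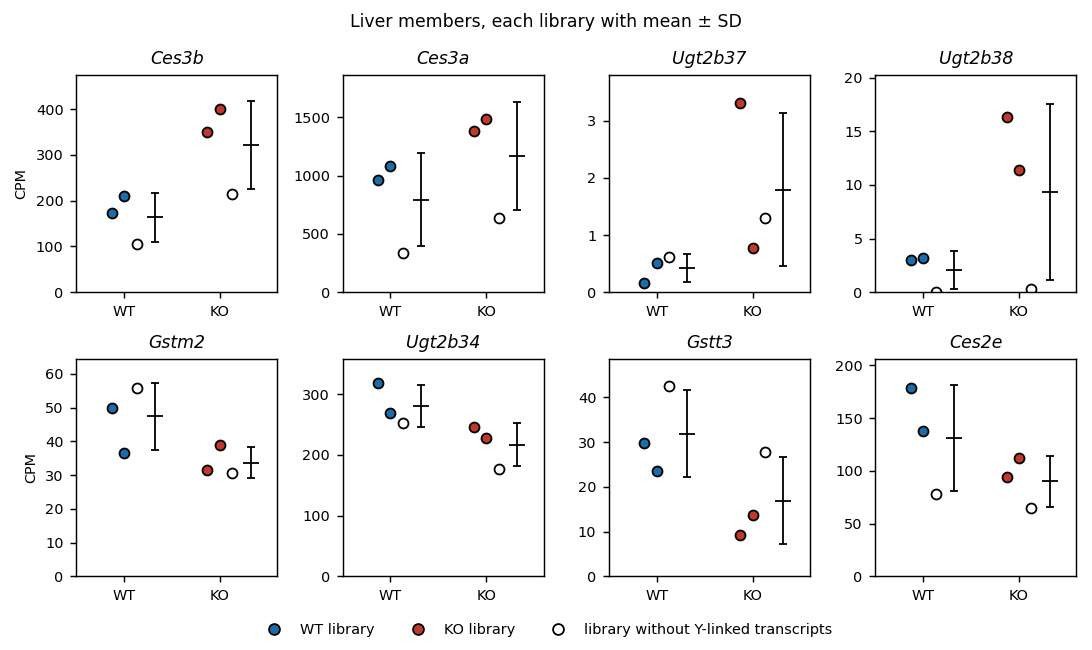
Level in CPM (linear axes from 0) of 8 members in each liver library, WT in blue and KO in red, with mean ± SD over the 3 libraries of a genotype. Open symbols are libraries without Y-linked transcripts. Ces3b, Ugt2b37 and Ugt2b34 are the members whose genotypes do not overlap.

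Split by Y-linked transcripts, 47 members had enough counts in both sets for a ratio of KO to WT. The ratio was above 1 in both sets for 13 members and below 1 in both for 22, and it pointed in opposite directions for 12. The set without Y-linked transcripts is KO mouse F against WT mouse E alone. The same split was not counted over all genes, so these numbers are not read as a result about the members. Of the liver cell types checked by markers, hepatocyte genes summed to 69582 to 92732 CPM in WT and 80096 to 91569 CPM in KO. All 5 Kupffer cell markers were lower in KO, none of them called, with sums of 173 to 296 CPM in WT and 124 to 247 CPM in KO, and none was at 0 in every liver library. Of 6 stellate cell markers, 5 were higher in KO, with sums of 281 to 332 CPM in WT and 313 to 426 CPM in KO. Of 5 cholangiocyte markers, 4 were lower (35.3 to 47.8 CPM in WT and 34.0 to 59.2 CPM in KO), and of 4 lymphocyte markers tested, 4 were lower (0.976 to 5.37 CPM and 1.90 to 2.58 CPM). Of 5 endothelial markers, 3 were higher (235 to 316 CPM and 248 to 307 CPM). No gene of these 4 lists was called (edgeR) or at 0 in every liver library. The part of these cells in the values of the members was not tested.

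Only 14 members had enough counts in brain to compare KO with WT, and 0 of them passed (edgeR), where 0.064% of 17188 genes did. At an unadjusted p under 0.05 there was also 0 of 14, against 5.96% of all genes higher and 5.01% lower, and by DESeq2 0 passed, where 1.66% of all genes did. Of the 14, 5 were higher and 9 lower (49.8% and 50.2% of all genes), and the median was -0.195 on the log2 scale with a median SE of 0.281. Gstm1 had the smallest p. It was at 51.3, 93.3 and 67.3 CPM in the WT brains of mice B, D and E and at 34.7, 65.0 and 38.8 CPM in the KO brains of mice A, C and F. The groups overlapped through KO mouse C, and the log2 fold change was -0.61 (SE 0.28, adjusted p = 0.464, edgeR). Of the alternatives run, it passed only without the filter on low counts (-0.64, adjusted p = 0.0102, edgeR), where 3.15% of all genes did. Its log2 fold change was -0.36 without mouse D and -0.94 without mouse C. Gsta4 had a log2 fold change of -0.30 (SE 0.16, -0.17 without mouse D) and Gstm4 of -0.39 (SE 0.26, -0.19 without mouse E).

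Gstt3 was the member of brain whose genotypes did not overlap, 1 of 14 (7.14%) against 16.3% of all genes (8.4% with KO higher and 7.94% with KO lower). It was at 1.80, 1.40 and 1.45 CPM in WT and at 0.892, 0.933 and 1.18 CPM in KO (log2 fold change -0.62, SE 0.36, adjusted p = 0.537, edgeR). Gstm5, the leading member of brain, was at 64.2, 67.3 and 61.1 CPM in WT and 85.3, 60.3 and 71.8 CPM in KO (0.17, SE 0.15). On the higher side stood Gsta3 (0.51, SE 0.37), Sult1a1 (0.44, SE 0.29), Gstt2 (0.28, SE 0.28) and Gstm6 (0.13, SE 0.27). Without mouse F Gsta3 was at 0.28, and without mice E and F Gsta3 was at 0.16, Sult1a1 at 0.28, Gstt2 at 0.0722 and Gstm6 at 0.0781, all on the log2 scale. Leaving out 1 mouse moved the fold change of 0 of the 14 members by over 1.5 times. The 58 members not tested had at most 18 counts in a brain library, and 24 of them had none in any. Differences between genotypes in Ugt and Ces genes were therefore not detectable in brain at this depth.

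The brain libraries of the 2 genotypes also differed in markers of brain regions. Olfactory markers summed to 5.53 to 11.9 CPM in WT and 35.7 to 53.7 CPM in KO brain, with 4 of 6 genes called higher. Cerebellum markers summed to 749 to 1084 CPM in WT and 198 to 474 CPM in KO, with 7 of 7 lower and 0 called. Choroid plexus markers summed to 229 to 393 CPM in WT and 114 to 184 CPM in KO, with 7 of 7 lower and 0 called. At an unadjusted p under 0.05 (edgeR) stood 7 cerebellum and 6 choroid plexus markers, where 5.01% of all genes were lower. No gene of the 3 lists was at 0 in every brain library. Lower in KO and not called were 5 of 5 astrocyte, 4 of 5 oligodendrocyte, 3 of 5 neuron, 3 of 5 microglia, 6 of 8 meningeal and 5 of 7 endothelial and pericyte markers. The part of these regions in the values of Gstm1, Gsta4 and the other brain members was not tested.

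Whether the genotype difference itself was unlike in liver and brain was tested over all 12 libraries. It passed for 0 of 52 members (edgeR), where 0.0% of 18944 genes did, at an unadjusted p under 0.05 for 1 higher and 0 lower member (5.51% and 5.07% of all genes), and by DESeq2 for 0 members (2.0% of all genes). With each mouse as a block it also passed for 0 members, where 68 of 18944 genes did. The member with the unadjusted p under 0.05 was Ces3b, which had 0 to 5 counts in a brain library. Of the members tested in both tissues, Gsta3 had the smallest p, with a liver effect minus a brain effect of -0.64 on the log2 scale (SE 0.31, adjusted p = 0.484, edgeR). Sult1a1 followed with -0.90 (SE 0.51, adjusted p = 0.564, edgeR). Gstm1, the transferase abundant in both organs, had a difference of 0.56 (SE 0.45). The 2 effects are given side by side, as both use the same mice: -0.08 (SE 0.28) in liver and -0.61 (SE 0.28) in brain.

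A larger contrast than that of genotype ran through the liver libraries. Both liver libraries without Y-linked transcripts (WT mouse E and KO mouse F) stood above or below all other 4 for 31 of the 51 members tested (60.8%), where 29.6% of all genes tested did. Of these, 14 were higher (27.5%, against 14.2%) and 17 lower (33.3%, against 15.4%). In brain the same held for 2 of 14 members (14.3%, against 8.34%), Gstm2 and Gstt1, both lower, where 3.94% of all genes were higher and 4.4% lower. Mice were not grouped this way by the study, so these values are described without a test. Beside them, 14 of 14 genes known as female-predominant in mouse liver were higher in the same 2 libraries, with sums of 2655 CPM (mouse E) and 1090 CPM (mouse F) against 6.09 to 15.0 CPM. Of 13 male-predominant genes, 12 were lower, with sums of 522 and 653 CPM against 4077 to 5377 CPM. None of these genes was at 0 in every liver library.

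The sulfotransferases showed the widest gap. Sult2a1, which sulfates dehydroepiandrosterone and bile acids, had 2383 counts in the liver of mouse E and 779 in that of mouse F, and 0 to 1 in the other 4 liver libraries. Sult2a2 had 1619 and 646 counts, and 0 to 2 in the others. Sult3a1, which sulfates amines, had 1010 and 263 counts and Sult2a5 had 211 and 112, both with 0 in the others. The 2 libraries without Y-linked transcripts were alone among liver libraries in holding these 4 members at more than 2 counts. They were unlike each other as well, since Sult2a3 had 276 counts in mouse E and 1 in mouse F, and Sult3a2 had 46 and 2, with 0 in the others. Sult2a8 went the other way within the same cluster, at 259 and 195 CPM against 288 to 324 CPM. None of these Sult2a and Sult3a genes but Sult2a8 passed the filter for the genotype test, as their counts in the other 4 libraries were at most 2.

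Members of other sulfotransferase families were shifted by less. Sult1d1 was at 132 and 120 CPM in mice E and F and at 41.9 to 54.6 CPM in the others. Sult1a1 was at 277 and 220 CPM against 81.7 to 166 CPM, and Sult5a1 at 5.61 and 7.03 CPM against 1.64 to 3.18 CPM. These ranges did not overlap. Of the 7 sulfotransferases that passed the filter, 4 were higher in the 2 libraries (14.2% of all genes tested), 1 was lower (15.4%) and 2 overlapped. Sult2a3 and Sult3a2, which did not pass it, stand above the others in mouse F by no more than 2 counts.

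The promoters of Sult2a5 and Sult2a3 are shown because the genes are close relatives that differed between mice E and F. Their 300-base windows were 74.92% identical. Capitals in the second line mark the 50 bases that differ from Sult2a5, or have no partner in it, in the alignment. Bases of Sult2a5 without a partner in Sult2a3 are not marked. The Sult3a1 window is shown for TTCNNNGAA, the core of the sites STAT5 binds, in capitals. This motif was chosen after the values had been seen.
Sult2a5 promoter, chr7:13623717-13623966, plus strand: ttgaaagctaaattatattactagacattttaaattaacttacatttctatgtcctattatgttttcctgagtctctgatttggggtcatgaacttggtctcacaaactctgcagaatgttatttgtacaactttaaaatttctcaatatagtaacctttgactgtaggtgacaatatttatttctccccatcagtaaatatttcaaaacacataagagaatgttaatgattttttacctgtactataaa
Sult2a3 promoter, chr7:14123049-14123298, minus strand: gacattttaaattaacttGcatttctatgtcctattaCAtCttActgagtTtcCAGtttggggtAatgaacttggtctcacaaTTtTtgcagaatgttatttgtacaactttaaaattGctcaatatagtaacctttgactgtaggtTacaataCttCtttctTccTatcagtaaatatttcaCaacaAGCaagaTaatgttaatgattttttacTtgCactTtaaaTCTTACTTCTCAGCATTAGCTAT
Sult3a1 promoter, chr10:33857472-33857720, plus strand: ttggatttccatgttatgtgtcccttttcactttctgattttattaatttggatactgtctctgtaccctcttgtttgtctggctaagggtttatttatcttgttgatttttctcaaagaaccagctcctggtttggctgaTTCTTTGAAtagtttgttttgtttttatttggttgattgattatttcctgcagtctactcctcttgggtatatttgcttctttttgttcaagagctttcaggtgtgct

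The match in Sult3a1 lies 109 to 101 bases before the start. TTCNNNGAA was found on either strand in 4 of 62 member promoters (6.45%: Sult3a1, Gsta1, Ugt1a6a and Ces1h) and in 8.42% of all promoters. No match was found in the windows of Sult2a5 and Sult2a3, which says only that these letters are not in them. For Sult2a1 and Sult2a2 the table held no window.

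**Figure D5:**
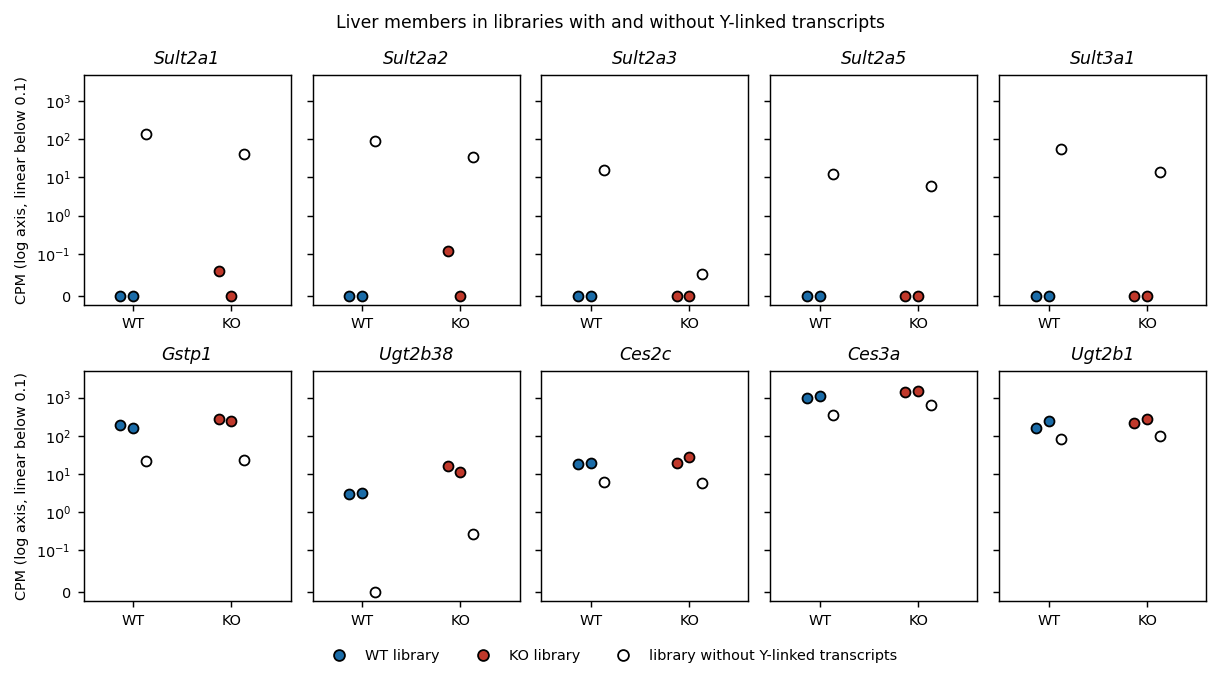
Level in CPM (log axis, linear below 0.1) of 10 members in each liver library, in libraries with and without Y-linked transcripts, WT in blue and KO in red, open symbols without Y-linked transcripts. Sult2a1, Sult2a2, Sult2a5 and Sult3a1 are above 5 CPM only in the 2 open symbols, while Gstp1, Ugt2b38, Ces2c, Ces3a and Ugt2b1 are lower there.

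Ugt genes moved both ways. In the Ugt1a locus, 6 of the 8 members tested were higher in mice E and F (14.2% of all genes tested), 1 was lower (15.4%) and 1 overlapped. Ugt1a5 was at 129 and 90.4 CPM against 23.7 to 77.5 CPM, Ugt1a9 at 35.1 and 24.3 CPM against 6.71 to 19.6 CPM, and Ugt1a1 at 139 and 153 CPM against 122 to 135 CPM. Ugt1a6b was lower, at 15.0 and 16.7 CPM against 22.6 to 26.6 CPM, while its near copy Ugt1a6a was higher, at 10.2 and 6.14 CPM against 3.55 to 5.37 CPM. Of the 7 Ugt2b members, all tested, 5 were lower (15.4% of all genes) and 2 overlapped. Ugt2b1 was at 83.7 and 96.3 CPM against 161 to 273 CPM, Ugt2b35 at 66.4 and 66.7 CPM against 131 to 209 CPM, and Ugt2b38 at 0 and 0.260 CPM against 3.03 to 16.4 CPM.

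The pi-class glutathione transferases and the carboxylesterases included several members that were lower in the 2 libraries. Gstp1 (chr19:4035407-4037985, minus strand) was at 21.7 CPM in mouse E and 23.3 CPM in mouse F and at 161 to 280.6 CPM in the others, a 9.66-fold difference of the means. The gap between the sets was wider than the whole spread within either. Gstp2, which shares much of its sequence with Gstp1, was lower as well, at 0.340 and 0.416 CPM against 0.771 to 2.34 CPM. Gstp3 was higher, at 16.4 and 11.4 CPM against 6.81 to 10.1 CPM. Among carboxylesterases, Ces2c was at 6.06 and 5.72 CPM against 17.9 to 27.0 CPM, Ces3a at 339.6 and 635 CPM against 963 to 1485 CPM, and Ces2b at 0 and 0 CPM against 0.154 to 1.02 CPM. Of the 12 carboxylesterases tested, 7 were lower (15.4% of all genes), 4 overlapped and 1 was higher (14.2%). The last was Ces1c, at 2005 and 2225 CPM against 1387 to 1708 CPM. Ces3b overlapped between the sets.

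The genes around these enzymes were read from lists of the same pathways. Of genes that supply the donor molecules (UDP-glucuronic acid, sulfate donor and glutathione), 8 of 15 were higher and 7 lower in KO liver, with 5 higher and 11 lower of 16 in brain. Glutathione synthetase, Gss, had a log2 fold change of 0.47 (SE 0.17, adjusted p = 0.584, edgeR) in liver. Of other conjugating and hydrolysing enzymes, 10 of 26 were higher and 16 lower in liver, and 10 of 17 were higher and 7 lower in brain. Hnmt, the histamine methyltransferase, had -0.51 (SE 0.19) in liver, and Hpgds, a sigma-class glutathione transferase that makes prostaglandin D, had 0.93 (SE 0.29, adjusted p = 0.360, edgeR) in brain. Transporters that export or take up conjugates were higher for 5 and lower for 10 of 15 in liver, and for 4 and 4 of 8 in brain. Enzymes that remove the conjugate were 2 and 2 of 4 in liver and 1 and 2 of 3 in brain. No gene of these lists was called in either tissue (edgeR, adjusted p under 0.1).

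Regulators and their other targets gave the same count of calls, 0. Of receptors and their partners, 10 of 15 were higher and 5 lower in KO liver, and 2 and 6 of 8 in brain. Nfe2l2, which encodes NRF2, had a log2 fold change of -0.47 (SE 0.18) and Foxa1 of 1.02 (SE 0.32, adjusted p = 0.520, edgeR) in liver. NRF2 targets outside the families were 6 higher and 8 lower of 14 in liver and 4 higher and 11 lower of 15 in brain. Among them G6pdx, which makes NADPH in the pentose phosphate pathway, had -1.14 (SE 0.24, adjusted p = 0.383, edgeR) in liver and -0.63 (SE 0.19, adjusted p = 0.355, edgeR) in brain, and Osgin1 had 1.29 (SE 0.38) in liver. CAR and PXR targets were 8 higher and 4 lower of 12 in liver and 2 and 5 of 7 in brain. AHR targets were 3 higher and 2 lower of 5 in liver, with Cyp1a2 at 0.52 (SE 0.19) and Tiparp at -0.66 (SE 0.21), and 2 and 1 of 3 in brain.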

How the data were processed

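Stranded total RNA libraries of liver and brain were made by the authors with the SMARTer kit, sequenced as single-end reads, checked with FastQC 0.11.5, trimmed with Trimmomatic, aligned to mm10 (GRCm38) with STAR 2.7.3a and counted over exons with featureCounts with its reverse-strand setting. Raw counts per gene, not normalised, are what the authors deposited. The table has 55487 genes and 0 columns of other samples. Symbols and gene types came from GENCODE M21 and the deposited identifiers, and 54349 identifiers had the same start and end there.

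Counts were analysed with edgeR 4.0.16 (R 4.3.3, limma 3.58.1) by TMM scaling, filterByExpr, robust quasi-likelihood F tests and Benjamini-Hochberg adjustment over all genes tested, with a call at an adjusted p under 0.1. KO was compared with WT in each tissue, the difference between tissues over 12 libraries, and WT liver with WT brain. Alternatives were DESeq2 1.42.0, its size factors, no filter on low counts, leaving out mice, a Y-linked covariate, 1 fit for all libraries and mouse as a block. The study itself had used DESeq2 for these libraries. The labels give the liver and brain of a mouse the same letter, so these pair by animal. Mice of both genotypes were paired by the study, and since no label ties a KO mouse to its control, no fit was paired between genotypes. A group with at most 3 counts in every library was taken as at the floor. The test script was tested on simulated data. Replicates are separate mice. Sequences came from GENCODE M21 and RefSeq, read with Biopython 1.88, and figures were drawn with matplotlib 3.10.9.

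The members, gene lists and tests were chosen with earlier results of these data known. The naming rule took, per tissue, the 5 higher and 5 lower members with the smallest p in KO, any called member, the 8 members with the highest level in WT liver and the 5 in WT brain, the 5 called members with the largest fold towards each tissue, the 5 with the largest ratio each way between libraries with and without Y-linked transcripts, and all Ugt1a genes. Other members named to complete a family, and the promoters shown, were chosen after their values were seen.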

Additional observations from a re-analysis of the deposited data

How the results depend on the processing

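In the comparison of KO with WT liver, 0 members were called in the reported fit, 1 by DESeq2 (Ces3b), 2 without the filter on low counts (Ces3b and Ugt2b37), and 2 both without the 2 mice that lack Y-linked transcripts and with Y-linked transcripts as a covariate (Ces3b and Ugt2b38 each time). The cause was not tested. Over all genes the liver calls were 187 by DESeq2, 443 without the filter, 29 without those mice and 82 with the covariate, against 0. In brain 0 members were called, and 1 (Gstm1) without the filter, with 286 genes called by DESeq2 and 1000 without the filter against 11. Leaving out 1 mouse at a time gave 0 to 0 members in liver, brain and the difference between tissues, and 48 to 50 between the WT tissues, with 0 to 87 genes called in liver (87 without mouse D) and 2 to 23 in brain (23 without mouse C). With the replicate block, in which a mouse pairs its liver with its brain, 0 members differed between tissues in the genotype effect and 48 between the WT tissues, so that it changed no call of a member; over all genes it called 68 in place of 0.

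For the members named in liver, 113 values kept their direction and their side of the threshold and 7 became calls, and in brain 119 did and 1 became a call. The 70 values of the 7 members named between the WT tissues were unchanged in both, while Gstp1 lost its call without mouse D. For the difference between tissues, 123 values kept their direction and 9 changed sign, none of them called. Leaving out 1 mouse at a time gave log2 values from -0.98 to 0.0530 for Gstm2, from -0.69 to 0.0304 for Gstt3, from -0.27 to 0.13 for Gstm5, from -0.21 to 0.48 for Gsta4, from -0.00297 to 0.75 for Gstm4 and from -0.14 to 0.45 for Gstt1. Without both mice that lack Y-linked transcripts, Gstt1 was at -0.0393. By all exon bases, Ugt1a1 moved to rank 18 and Sult1a1 to rank 7. The depth limits brain, where 58 members were too low to test, and the 3 mice per group limit every fold.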

Other observations

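Single mice stood apart for a few members beyond what genotype or Y-linked transcripts would order. In liver, Ces1b was at 246 CPM in WT mouse D and at 44.9 to 82.8 CPM in the other 5 libraries, while Ces1g, which lies in the same cluster on chromosome 8, was lowest in that mouse, at 73.1 CPM against 145 to 194 CPM. The log2 fold change of Ces1b in KO liver was -0.98 (SE 0.72), and within the libraries with Y-linked transcripts KO was 0.347 times WT, whereas without them it was 1.14 times WT. The WT livers of mice B and E were at 44.9 and 72.5 CPM and the KO livers at 49.2, 51.9 and 82.8 CPM. The log2 fold change and the ratio of 0.347 therefore lean on mouse D. The liver of mouse D also had the lowest level of the 6 for Gsta2, at 3.51 CPM against 4.16 to 17.8 CPM, and for Ugt1a9, at 6.71 CPM against 12.5 to 35.1 CPM.

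The 2 liver libraries without Y-linked transcripts were unequal for some sulfotransferases. Sult2a1 was at 135 CPM in WT mouse E and 40.5 CPM in KO mouse F, Sult3a1 at 57.2 and 13.7 CPM, Sult2a5 at 11.9 and 5.83 CPM and Sult2a3 at 15.6 and 0.0520 CPM. With 1 such mouse of each genotype, genotype and mouse cannot be told apart here.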
